A study of Mus musculus with 10 samples.

Results

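The brush border digestive enzymes described here are 10 genes, Lct, Sis, Mgam, Treh, Anpep, Dpp4, Ace, Mep1a, Alpi and Vil1, taken by name from the 28987 Ensembl gene IDs measured in ileal crypts. All 10 were found by ID, and all 10 passed the filter on low values, which asked for 1 TPM or more, as deposited, in 2 or more libraries. TPM give each gene's length-corrected share of the transcripts of its library. Of these genes, 9 encode enzymes of the luminal face of the enterocyte, and Vil1 encodes villin, an actin-bundling protein of the same microvilli and no enzyme.

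Total RNA was measured in 10 libraries from mice labelled male, C57Bl6 and 12 weeks old. The 3 Ctrl libraries carry the genotype label VilCreER;Stat5 (STAT5+/+), the 2 KO libraries VilCreER;Stat5 (STAT5IEC-/-) and the 5 OE libraries VilCreER;icS5 (STAT5IEC+++). VilCreER, a Cre recombinase driven by villin regulatory sequence and active in the intestinal epithelium, is thus in the label of every group, controls included. The label icS5 is not spelled out, a control of that line was not analysed here, and no label says that libraries of a group came from separate animals, so the p-values measure the spread between these libraries, which may be technical. Since TPM hold no read numbers, sequencing depth is unknown here.

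The brush border is the carpet of microvilli on the absorptive enterocyte, and its hydrolases carry out the last step of digestion next to the transporters that take up sugars, amino acids and small peptides. Enterocytes acquire these enzymes as they leave the crypt and climb the villus, while the crypt itself holds stem cells, dividing progenitors and Paneth cells. Several of the enzymes are also graded along the gut, lactase and sucrase-isomaltase being best known from the jejunum.

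Values are given on a deposited and a scaled basis because the libraries differ in composition. Mitochondrial genes took 83.7% of the TPM of Ctrl 2 and between 43.3% and 57.0% in the other 9 libraries, and 8263 genes reached 1 TPM in Ctrl 2 against 11050 to 11932 elsewhere. Scaled TPM are deposited TPM divided by a median-ratio factor per library, which was 0.295 in Ctrl 2 and 0.831 to 1.31 in the others. In Ctrl 2, Fabp6, the ileal bile acid binding protein, was at 41.6 scaled TPM against 244 to 1401 elsewhere, and Slc10a2, the ileal bile acid transporter, at 1.13 against 29.1 to 72.5. Tmprss15, the enteropeptidase of the duodenum, was at 23.5 scaled TPM in Ctrl 2 and at most 0.00576 in any other library, so the ileal position markers were low and a duodenal one was present in the library labelled Ctrl 2. A sum of 4 Y-linked genes was 3.45 deposited TPM or less in Ctrl 3, OE 3 and OE 4 and 32.3 or more in the other 7 libraries, although all are labelled male. In the check of the targeted genes, Stat5a was at 0.637 and 0.336 scaled TPM in KO against 1.07 to 2.60 in Ctrl, and Stat5b at 0.482 and 0.430 against 0.970 to 1.76. OE 1, at 1.56 scaled TPM for Stat5a and 1.49 for Stat5b, lay within the Ctrl range of both. OE 2 lay within that range for Stat5a, at 2.10, and OE 3 to 5 were above it at 3.55, 2.81 and 2.81. Stat5b was above the Ctrl range in OE 2 to 5, at 3.50, 4.71, 5.53 and 2.65. As deposited, KO and Ctrl overlapped in both genes. Stat5a was at 0.771 TPM in KO 1 and 0.765 in Ctrl 2, and Stat5b at 0.583 and 0.517, so their separation depended on the scaling of Ctrl 2.

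No member differed between groups past the test. Limma called 0 of the 10 members in KO against Ctrl, 0 in OE against Ctrl and 0 in OE against KO at a Benjamini-Hochberg adjusted p of 0.05, and it called 0% of the 13056 genes tested in each comparison (percentage over all genes, either direction). At an unadjusted p under 0.05 there were 452, 797 and 385 genes in these 3 comparisons and 0 members in each, and a robust limma fit also called 0 genes. In scaled TPM, libraries of the same group differed widely in most members, with the highest values of 9 of the 10 in Ctrl 2. The SD of log2(scaled TPM + 1) within groups was 0.41 for Mep1a and 0.50 for Vil1, against a median of 0.47 over all genes tested. It was 0.72 or more for the other members. In bulk RNA, fewer enterocytes in a library and less RNA per enterocyte cannot be told apart.

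**Figure D1:**
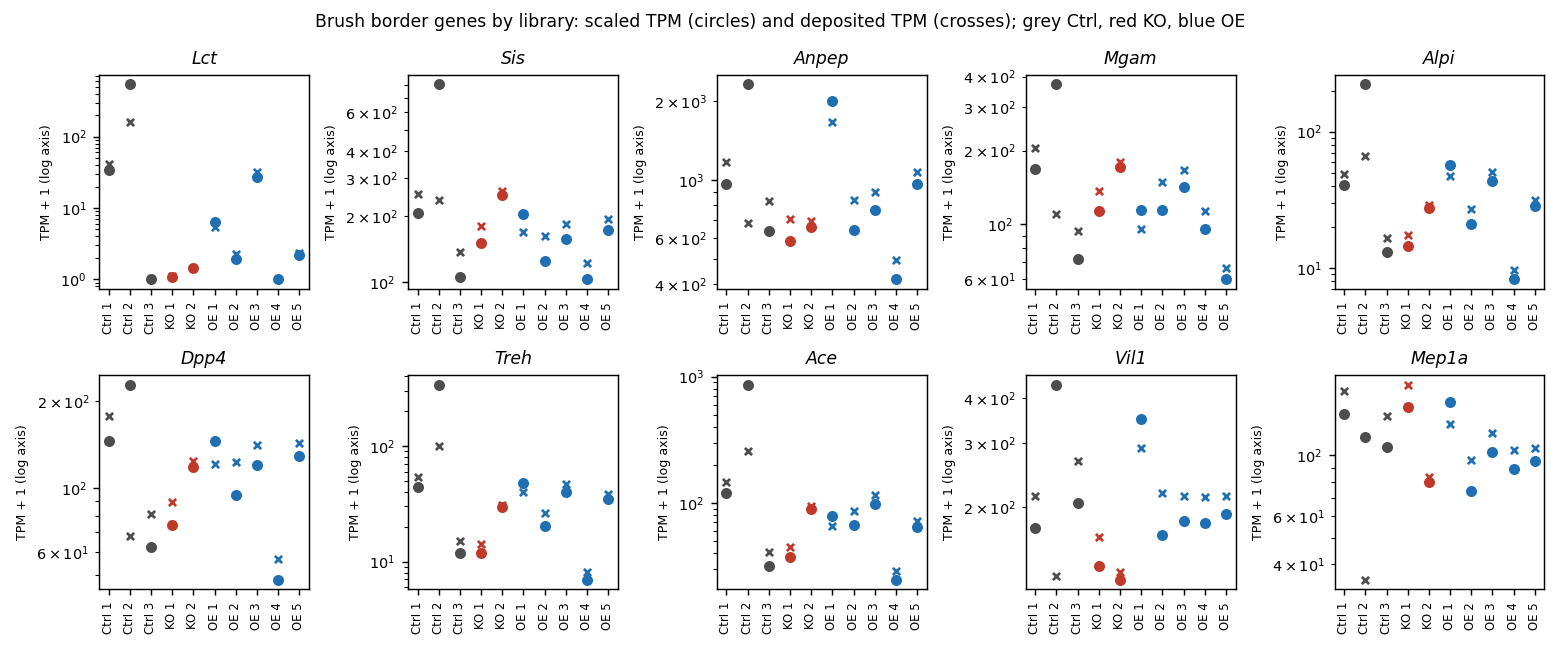
Each panel plots 1 gene in the 10 libraries on a log axis of TPM + 1, with its own range, as scaled TPM (circles) and deposited TPM (crosses), Ctrl in grey, KO in red and OE in blue. Ctrl 2 is the highest circle for every gene but Mep1a, and Lct, listed at 0 in Ctrl 3 and OE 4, sits at the bottom of its panel there.

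Of the disaccharidases, Lct (ENSMUSG00000026354, GRCm38 chromosome 1, 128284756 to 128328318, minus strand) encodes lactase-phlorizin hydrolase, which splits milk sugar and declines after weaning. Its scaled TPM were 32.9, 541 and 0 in Ctrl 1 to 3, 0.0805 and 0.430 in KO 1 and 2, and 5.38, 0.961, 26.5, 0 and 1.18 in OE 1 to 5. As deposited, they were 40.2, 159 and 0, then 0.0973 and 0.451, then 4.47, 1.25, 31.0, 0 and 1.31 TPM. Both KO libraries were low, but Ctrl and OE each held a library listed at 0 and another at 26.5 scaled TPM or more, so the groups overlapped. Gapdh, which every cell uses, is also listed at 0 in Ctrl 2, so a value listed at 0 in these files may not be a measured absence. The limma difference of KO against Ctrl was -4.41 on the log2(scaled TPM + 1) scale (95% interval -9.12 to 0.31, limma adjusted p = 0.943). Its interval spans differences from a large deficit to a small excess.

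Sis (ENSMUSG00000027790, chromosome 3, 72888557 to 72967863, minus strand) encodes sucrase-isomaltase, which splits sucrose and the branch points of starch. It was at 207, 807 and 105 scaled TPM in Ctrl, 149 and 249 in KO, and 204, 123, 157, 102 and 173 in OE. The deposited values were 253, 238 and 137 in Ctrl, 181 and 261 in KO, and 169, 161, 184, 121 and 193 in OE. All 3 groups overlapped on both scales, and on the deposited scale Ctrl 2 lay within the range of the other libraries. The Ctrl mean was 373 ± 379 scaled TPM (SD, n = 3), above the KO mean of 199 ± 70.3 (SD, n = 2) and the OE mean of 152 ± 40.2 (SD, n = 5) by less than the spread within Ctrl.

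Mgam (ENSMUSG00000068587), the maltase-glucoamylase gene of chromosome 6 (40628831 to 40769123, plus strand), encodes an enzyme that acts beside sucrase-isomaltase on starch fragments. Its scaled TPM were 167, 371 and 71.2 in Ctrl, 112 and 170.0 in KO, and 113, 113, 141, 94.8 and 58.6 in OE. The deposited values were 204, 109 and 92.9 in Ctrl, 136 and 178 in KO, and 94.3, 148, 165, 112 and 65.5 in OE. The lowest library was OE 5 on both scales, whereas OE 4 was the lowest for Sis, and groups overlapped. Sis was 1.07 to 2.95 times Mgam in TPM by library, highest in OE 5 at 2.95 and next in Ctrl 2 at 2.17.

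Treh encodes trehalase, which splits the fungal and insect sugar trehalose, and Alpi encodes intestinal alkaline phosphatase, which removes phosphate from luminal substrates including bacterial lipopolysaccharide. Treh (ENSMUSG00000032098) lies on chromosome 9, 44673233 to 44686305, plus strand, and Alpi (ENSMUSG00000079440) on chromosome 1, 87098002 to 87101606, minus strand. Treh was at 43.1, 339 and 10.8 scaled TPM in Ctrl, 11.0 and 28.7 in KO, and 47.3, 19.2, 39.3, 5.97 and 33.8 in OE. Alpi was at 39.3, 222 and 12.0 in Ctrl, 13.5 and 26.6 in KO, and 55.8, 20.0, 42.2, 7.23 and 27.5 in OE. Both genes were highest in Ctrl 2 and lowest in OE 4, and all groups overlapped. As deposited, Treh was at 52.6, 99.8 and 14.1 TPM in Ctrl, 13.3 and 30.1 in KO, and 39.3, 25.1, 46.1, 7.07 and 37.7 in OE. Deposited Alpi was at 48.0, 65.3 and 15.6 in Ctrl, 16.3 and 27.9 in KO, and 46.3, 26.1, 49.4, 8.57 and 30.7 in OE. KO 1 stood below every OE library but OE 4 on both scales for both genes. The limma differences of KO against Ctrl were -1.57 for Treh (95% interval -4.27 to 1.12) and -1.29 for Alpi (-3.65 to 1.08), each with an adjusted p of 0.943.

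The ratio of Treh to Alpi within a library does not depend on how libraries are scaled. By library it was 1.10, 1.53 and 0.902 in Ctrl, 0.812 and 1.08 in KO, and 0.848, 0.961, 0.932, 0.826 and 1.23 in OE. While Treh varied 56.8-fold and Alpi 30.7-fold between libraries in scaled TPM, and 14.1-fold and 7.63-fold as deposited, their ratio varied 1.88-fold. This was the smallest range of the 36 pairs among the 9 members above 0 in every library, and without Ctrl 2 it was 1.51-fold. Among the 10779 genes above 0 everywhere that could be set against Alpi, Treh had the smallest SD of the log2 ratio to Alpi, 0.29 against a median of 1.48, followed by Slc15a1, the peptide transporter, at 0.30. The pair was picked after its values were seen, so these values are a description and no test was run.

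**Figure D2:**
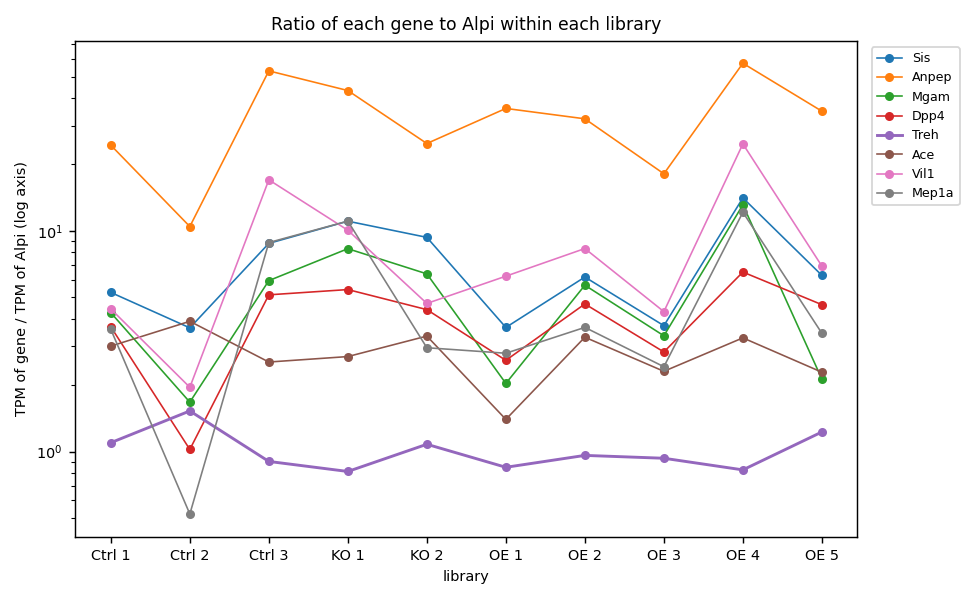
The TPM of 8 members over the TPM of Alpi in the same library is plotted on a log axis, 1 coloured line per gene, with lines joining libraries only to guide the eye. Treh, the thick line, stays between 0.812 and 1.53 times Alpi, while Mep1a runs from 0.521 times Alpi in Ctrl 2 to 12.1 times in OE 4.

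The letters before the start sites of this pair are shown because the genes moved together, with Lct as the member of widest spread and Mep1a as that of narrowest spread in scaled TPM. Each line holds the 250 bases before the RefSeq start site in GRCm38.p6, written 5′ to 3′ on the gene's strand. Capitals mark TTTAT or its complement ATAAA, the core letters bound by CDX factors, and CAAAGTCCA or its complement TGGACTTTG, letters bound by HNF4 factors.
Alpi, chr1:87101607-87101856, minus strand: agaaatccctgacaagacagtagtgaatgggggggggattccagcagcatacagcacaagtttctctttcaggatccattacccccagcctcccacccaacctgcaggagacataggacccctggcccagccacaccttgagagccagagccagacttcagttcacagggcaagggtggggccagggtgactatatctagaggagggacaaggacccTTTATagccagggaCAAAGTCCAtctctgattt
Treh, chr9:44672983-44673232, plus strand: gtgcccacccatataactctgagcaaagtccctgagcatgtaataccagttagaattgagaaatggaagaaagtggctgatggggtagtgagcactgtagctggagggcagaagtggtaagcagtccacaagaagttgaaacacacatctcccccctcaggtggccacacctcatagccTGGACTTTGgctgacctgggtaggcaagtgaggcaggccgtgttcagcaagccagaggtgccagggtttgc
Lct, chr1:128328319-128328568, minus strand: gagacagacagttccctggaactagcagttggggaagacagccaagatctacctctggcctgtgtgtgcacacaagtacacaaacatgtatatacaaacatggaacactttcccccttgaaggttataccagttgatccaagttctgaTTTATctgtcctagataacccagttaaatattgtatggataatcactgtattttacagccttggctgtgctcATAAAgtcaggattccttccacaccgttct
Mep1a, chr17:43502774-43503023, minus strand: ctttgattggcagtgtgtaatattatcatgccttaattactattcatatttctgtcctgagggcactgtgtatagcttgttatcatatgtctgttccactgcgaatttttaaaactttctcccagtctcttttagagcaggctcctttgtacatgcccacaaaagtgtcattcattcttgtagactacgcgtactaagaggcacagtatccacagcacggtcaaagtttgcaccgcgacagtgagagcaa

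Letters were counted over 300 bases, from 250 before to 50 after each start. The promoters of 1 chromosome, which holds no member, were left out of the counts. The Anpep window, 79848161 to 79848460, lies inside its gene span, so its counts concern that start only. The HNF4 letters were present on either strand in 2 of the 10 members, Alpi and Treh, and in 156 of 32817 RefSeq promoters (0.475%). In Alpi they began 19 bases before the start and in Treh 71 bases before it, on opposite strands. Whether HNF4 factors bind there, and any part of these letters in the like course of the pair, was not tested. The CDX letters were present on either strand in 7 of the 10 members (Lct, Sis, Mgam, Alpi, Dpp4, Ace and Mep1a) and in 40.0% of promoters, so that they are common. In Alpi they lay 33 bases before the start, and in Lct 1 of 2 matches lay 30 bases before it. Whether these letters are part of a TATA box was not tested. The match in Mep1a lay after the start and so is not in the printed line. The GATA factor letters AGATAA were present on either strand in Lct, Mgam and Dpp4 and in 11.2% of promoters, and in Lct 1 of their 2 matches overlapped the CDX letters. The HNF1 site was present in no member and in 3 promoters, and its shorter part, the letters GTTAAT, in Sis and in 7.10% of promoters on either strand. The palindrome TTCNNNGAA of STAT factors was present in no member and in 8.29% of promoters, which says only that these letters are not in these windows.

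Of the peptidases, Anpep (ENSMUSG00000039062, chromosome 7, 79821803 to 79861059, minus strand) encodes aminopeptidase N, which clips amino acids from the front of peptides. It had the highest level per length of all 10 members in every library. Its scaled TPM were 962, 2322 and 635 in Ctrl, 584 and 662 in KO, and 2001, 643, 766, 415 and 960.0 in OE. As deposited, they were 1174, 684 and 829 in Ctrl, 706 and 694 in KO, and 1663, 839.9, 897, 493 and 1072 in OE. OE 1 was the highest library as deposited and Ctrl 2 after scaling, and KO lay inside the range of both other groups on the deposited scale. Anpep made up between 37.2% (Ctrl 2) and 63.5% (OE 1) of the 10 members' summed TPM.

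Dpp4 (ENSMUSG00000035000, chromosome 2, 62330073 to 62412231, minus strand) encodes dipeptidyl peptidase 4, which removes dipeptides from peptides and inactivates incretin hormones, and is also on T cells. It was at 145, 227 and 61.4 scaled TPM in Ctrl, 73.2 and 117 in KO, and 144, 93.2, 119, 47.0 and 127 in OE. Deposited values were 176, 66.8 and 80.1 in Ctrl, 88.5 and 123 in KO, and 120.0, 122, 139.7, 55.7 and 142 in OE. The groups overlapped on both scales. The 6 T cell markers summed to between 30.9 and 141 scaled TPM in Ctrl, 20.0 and 51.5 in KO and 59.1 and 270.4 in OE, with Cd3e at 1.13 to 22.0. All 6 were tested and none was called, and their part in the Dpp4 values was not tested.

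Ace (ENSMUSG00000020681, chromosome 11, 105967945 to 105989964, plus strand) encodes angiotensin-converting enzyme, a peptidase of the brush border that is also on endothelium. It was at 118, 864 and 30.4 scaled TPM in Ctrl, 36.4 and 88.8 in KO, and 78.0, 65.8, 97.5, 23.7 and 63.0 in OE. The deposited values were 144, 254 and 39.7 in Ctrl, 44.0 and 93.1 in KO, and 64.8, 86.0, 114, 28.1 and 70.4 in OE. Ctrl 2 was the highest and OE 4 the lowest library on both scales, and the groups overlapped. The 6 endothelial markers summed to 0.143 to 1.88 scaled TPM per library, 1 of the 6 passed the filter on low values, and Cdh5 and Emcn were listed at 0 in at least 9 libraries. The summed endothelial markers were below Ace in every library, and since a listed 0 may not be a measured absence, their part in the Ace values was not tested.

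Mep1a (ENSMUSG00000023914, chromosome 17, 43474324 to 43502812, minus strand) encodes the alpha subunit of meprin, a metalloprotease of the brush border that is partly shed. In scaled TPM it had the narrowest range of the members, with 141, 116 and 106 scaled TPM in Ctrl, 149 and 78.6 in KO, and 156, 73.0, 102, 87.8 and 94.6 in OE. As deposited it was at 172, 34.1 and 138 in Ctrl, 181 and 82.4 in KO, and 129, 95.3, 119.7, 104 and 106 in OE. It was the one member that was not highest in Ctrl 2 after scaling, and as deposited Ctrl 2 was its lowest library. The highest library was 2.13 times the lowest in scaled TPM and 5.31 times as deposited, where Sis at 2.16 and Vil1 at 2.26 had narrower ranges. The Ctrl mean was 121 ± 18.0 scaled TPM (SD, n = 3), the KO mean 114 ± 50.1 (SD, n = 2) and the OE mean 103 ± 31.5 (SD, n = 5). These means differ by less than the SDs of KO and OE.

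Vil1 (ENSMUSG00000026175, chromosome 1, 74409376 to 74435559, plus strand), whose regulatory sequence drives the Cre of all groups, was the one member whose groups did not overlap. It was at 174, 434 and 204 scaled TPM in Ctrl, 136 and 125 in KO, and 348, 166, 182, 179 and 191 in OE. Both KO libraries were below all 3 Ctrl libraries in scaled TPM, as were 7.27% of the genes tested, and below all 5 OE libraries, which 4.04% of genes were as well. In deposited TPM, Vil1 was at 213, 128 and 266 in Ctrl, 164 and 131 in KO, and 289, 217, 213, 212 and 213 in OE. In these values KO was still below every OE library, as were 3.09% of genes, but Ctrl 2 fell below both KO libraries. No other member had groups that did not overlap. Over all genes tested, KO lay wholly above Ctrl for 9.09% in scaled and 8.44% in deposited TPM, and wholly below Ctrl in deposited TPM for 1.47%, with no member among them. OE lay wholly above Ctrl for 2.21% in scaled and 1.78% in deposited TPM, wholly below Ctrl for 1.52% and 0.237%, and wholly below KO for 4.43% and 3.63%, again with no member. The limma difference of Vil1 was -0.93 for KO against Ctrl (95% interval -1.89 to 0.032, limma adjusted p = 0.943) and 0.65 for OE against KO (-0.23 to 1.53, limma adjusted p = 1). Neither was called. Within OE, 4 libraries lay between 166 and 191 scaled TPM and OE 1 stood above them at 348.

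The members differed in how far they varied. The SD of log2(scaled TPM + 1) over the 10 libraries was 3.01 for Lct, 1.55 for Treh, 1.43 for Ace and 1.33 for Alpi, each wider than 96.0% or more of the genes tested. It was 0.86 for Sis, 0.78 for Anpep, 0.74 for Mgam and 0.66 for Dpp4, and 0.56 for Vil1 and 0.38 for Mep1a, against a median of 0.48 over all genes. In scaled TPM, Mep1a was thus below the median gene in spread although its mean level, 110.3 scaled TPM, was close to the 115 of Dpp4. Without Ctrl 2, the highest-to-lowest ratio of scaled TPM fell from 56.8 to 7.93 for Treh, from 36.5 to 4.99 for Ace and from 30.7 to 7.72 for Alpi. It fell from 7.91 to 2.44 for Sis and stayed at 2.13 for Mep1a.

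By mean scaled TPM over all libraries, which compares genes per length, the order was Anpep (995), Sis (228), Vil1 (214), Ace (147), Mgam (141), Dpp4 (115), Mep1a (110.3), Treh (57.8) and Alpi (46.6), with Lct left out because it is listed at 0 in 2 libraries. Anpep was above Sis in every library, whereas each later pair of neighbours in this order changed places between libraries. For Vil1 and Ace, and for Mep1a and Treh, this happened only in Ctrl 2. Elsewhere Ace was at most 0.711 times Vil1 and Treh at most 0.385 times Mep1a. The order of the other later neighbours is not larger than the spread. The place of Ace rests largely on Ctrl 2, at 864 scaled TPM against at most 118 in any other library. The 10 members together took 0.256% (OE 4) to 1.13% (Ctrl 2) of the TPM outside mitochondrial genes.

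Over the 10 libraries, Pearson's r of log2(scaled TPM + 1) was 0.992 for Alpi and Treh and 0.975 for Treh and Ace, and 0.984 and 0.937 without Ctrl 2. Mep1a had r between 0.139 and 0.482 with the other 9 members, and Vil1 had r between -0.296 and 0.743 with the other 9 members without Ctrl 2. These correlations are over libraries that share scaling and mixture of cells.

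Of 7322 protein-coding genes that are no members and average at least 5 scaled TPM, the 5 with the course most like the members' mean were Slc16a10, Slc7a8, Mme, Slc43a2 and Aldh1a1. Slc16a10 (aromatic amino acid transport) had r = 0.985 over the 10 libraries and 0.979 without Ctrl 2, with values of 5.06 to 81.9 scaled TPM. Slc7a8 and Slc43a2, which carry neutral amino acids, had r = 0.983 and 0.978, and 0.947 and 0.931 without Ctrl 2. Mme, the peptidase neprilysin, had r = 0.978 and 0.968 without Ctrl 2, at 0.0780 to 410.4 scaled TPM. Aldh1a1, a retinaldehyde dehydrogenase, had r = 0.977 and 0.943 without Ctrl 2.

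KO against Ctrl and OE against Ctrl share the same 3 Ctrl libraries, so their values for the members are given side by side only. In scaled TPM all 10 members had a lower mean log2 value in KO than in Ctrl, with a median difference of -0.89, where 46.7% of all genes tested were lower and their median was 0.038. All 10 were also lower in OE than in Ctrl, with a median of -0.76 against 0.021 over all genes, of which 47.9% were lower. The members' differences ran from -0.14 (Mep1a) to -4.41 (Lct) in KO and from -0.27 (Mep1a) to -2.81 (Lct) in OE. On the deposited scale 6 of 10 members were lower in KO (median -0.36, all genes 0.38, of which 20.8% were lower) and 6 of 10 in OE (median -0.25, all genes 0.36, 17.1% lower).

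These values depended on Ctrl 2. Without it, 8 of 10 members were lower in KO than in Ctrl with a median of -0.18, and 5 of 10 in OE with a median of 0.033, where the medians over all genes were 0.0073 and -0.010. Anpep, Alpi, Dpp4, Treh and Vil1 then stood at 0.082, 0.19, 0.071, 0.12 and 0.11 in OE against Ctrl on the log2 scale. These genes turned from lower to higher. In KO against Ctrl, Sis turned to 0.39 and Mgam to 0.34. Without Ctrl 3, OE 3 and OE 4, an alternative chosen after seeing the data, all 10 members were lower in both comparisons. Their medians were -1.17 in KO and -1.38 in OE, against 0.065 and 0.042 over all genes, of which 45.6% and 46.9% were lower. Only Ctrl 1 and Ctrl 2 remain as controls in that setting, so it rests on Ctrl 2 even more.

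OE against KO does not use Ctrl libraries for its difference. Of the 10 members, 7 were higher in OE, with a median of 0.24 against -0.00062 over all genes, and Sis (-0.39), Mgam (-0.46) and Mep1a (-0.13) were lower. Lct had the largest of the members' differences, 1.59 (95% interval -2.73 to 5.92), followed in size by Vil1 at 0.65, Mgam and then Anpep at 0.42, and Ace had the smallest at 0.066. Without KO 1, 4 of 10 were higher and the median was -0.16, and without OE 1, 5 of 10 with a median of 0.035.

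**Figure D3:**
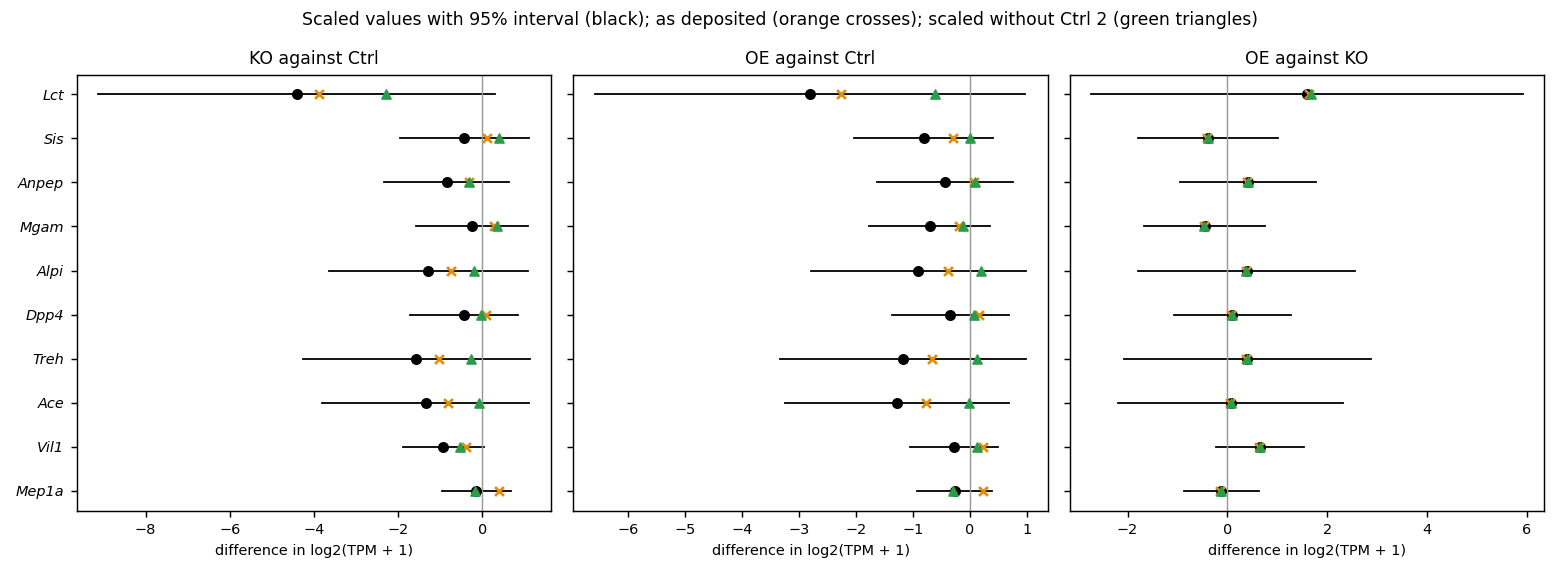
The difference of each member in log2(TPM + 1) is plotted for the 3 comparisons, with scaled values as black points and their 95% limma intervals as lines, deposited values as orange crosses and scaled values without Ctrl 2 as green triangles. Every interval crosses 0, that of Vil1 in KO against Ctrl reaching from -1.89 to 0.032, and most green triangles of the 2 comparisons with Ctrl lie nearer to 0 than the black points.

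Setting each member against Vil1 in the same library removes the scaling. For 8 members and 3 comparisons, 24 exact two-sided permutation tests were run, and 0 passed after adjustment. Lct, listed at 0 in a Ctrl and an OE library, was left out. Sis was 1.10 and 1.99 times Vil1 in KO 1 and 2 against 0.586, 0.743, 0.864, 0.569 and 0.908 times in OE, a log2 difference of -1.04 (exact permutation p = 0.0476, adjusted p = 0.571). Mep1a was 1.10 and 0.630 times Vil1 in KO against 0.447, 0.439, 0.563, 0.490 and 0.496 in OE, a log2 difference of -0.78 (exact permutation p = 0.0476, adjusted p = 0.571). The p of 0.0476 is the smallest that 2 libraries against 5 can give. Mgam was 0.825 and 1.36 times Vil1 in KO against 0.327, 0.682, 0.777, 0.530 and 0.308 in OE, -1.11 on the log2 scale (exact permutation p = 0.0952, adjusted p = 0.762). In these 3 genes every KO library was above every OE library in the ratio. The same held for 29.8% of the 13055 genes set against Vil1, so that 3 of 8 members is near the background and no result about them, and Vil1 itself was lower in KO. Set against Epcam, an epithelial adhesion gene, in place of Vil1, the ratios of Sis, Mgam and Mep1a overlapped between OE and KO (exact permutation p = 0.0952, 0.286 and 0.238). Anpep, Alpi, Dpp4, Treh and Ace had overlapping ratios to Vil1 in all 3 comparisons. Against Ctrl, the exact permutation test cannot go below p = 0.1 for KO and 0.0179 for OE.

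The other brush border genes, listed with earlier results of these data known, gave a like picture. Of 14 further hydrolases, 12 were tested and 0 called in any comparison. In KO against Ctrl 11 of 12 were lower (median -1.07) and in OE against Ctrl 9 of 12 (median -0.56), and without Ctrl 2 these were 6 and 2 of 12. As deposited, 8 of 12 were lower in KO (median -0.51) and 7 of 12 in OE (median -0.051). Among those of highest mean were Enpep, a glutamyl aminopeptidase, at 315 to 969 scaled TPM, and Naaladl1, a peptidase, at 303 to 845. Another was Ggt1, the gamma-glutamyl transferase, at 65.6 to 555. Naaladl1 was highest in OE 1 and Enpep and Ggt1 in Ctrl 2, and these 3 were lowest in OE 4.

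The 13 genes of microvillus structure were all tested and 0 were called. Of these, 12 of 13 were lower in KO (median -0.49) and 12 of 13 in OE (median -0.30) than in Ctrl, and 9 and 3 of 13 without Ctrl 2. As deposited, 6 of 13 were lower in KO (median 0.043) and 3 of 13 in OE (median 0.19), so the direction turned with the scaling. The 4 highest were Pls1, an actin-bundling plastin, at 149 to 714 scaled TPM, Myo1a, the brush border myosin, at 171 to 449, Cdhr2, a protocadherin linking microvillus tips, at 109 to 478, and Ezr, ezrin, at 74.1 to 291.

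Of the 8 transporters of digestion products, 7 were lower in KO (median -0.78) and 7 in OE (median -0.52) than in Ctrl, 0 called, and without Ctrl 2 these were 5 and 3 of 8. As deposited, 5 of 8 were lower in KO (median -0.24) and 4 of 8 in OE (median -0.0078). Slc5a1, the sodium-glucose cotransporter, ran from 68.6 in OE 4 to 834 scaled TPM in Ctrl 2 and Slc6a19, a neutral amino acid transporter, from 41.5 to 648 in the same libraries. Slc7a9, a cystine transporter subunit, ran from 132 to 292. Slc1a1, a glutamate transporter, went the other way, with its lowest value of 21.5 in Ctrl 2 and its highest of 277 in Ctrl 3.

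Of the 13 enterocyte transcription factors, in scaled TPM 7 of 13 were lower in KO (median -0.030) and 7 of 13 were lower in OE (median -0.0079) than in Ctrl, with 0 called. Without Ctrl 2 these were 6 and 5 of 13, and as deposited 3 of 13 in KO (median 0.41) and 3 of 13 in OE (median 0.43). Elf3 ran from 67.5 to 162 scaled TPM, Hnf4g from 63.5 to 176, Hnf4a from 64.6 to 94.6 and Cdx2 from 51.4 to 106. The list was mixed in spread. Hnf4a and Cdx2 varied 1.46-fold and 2.07-fold in scaled TPM between libraries, whereas Gata4 ran from 0.651 in OE 4 to 63.1 in Ctrl 2, 96.9-fold, and Creb3l3 from 1.86 to 159.7 in the same libraries, 85.7-fold. These last genes were named after their values were seen, and both varied more than the 56.8-fold of Treh.

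**Figure D4:**
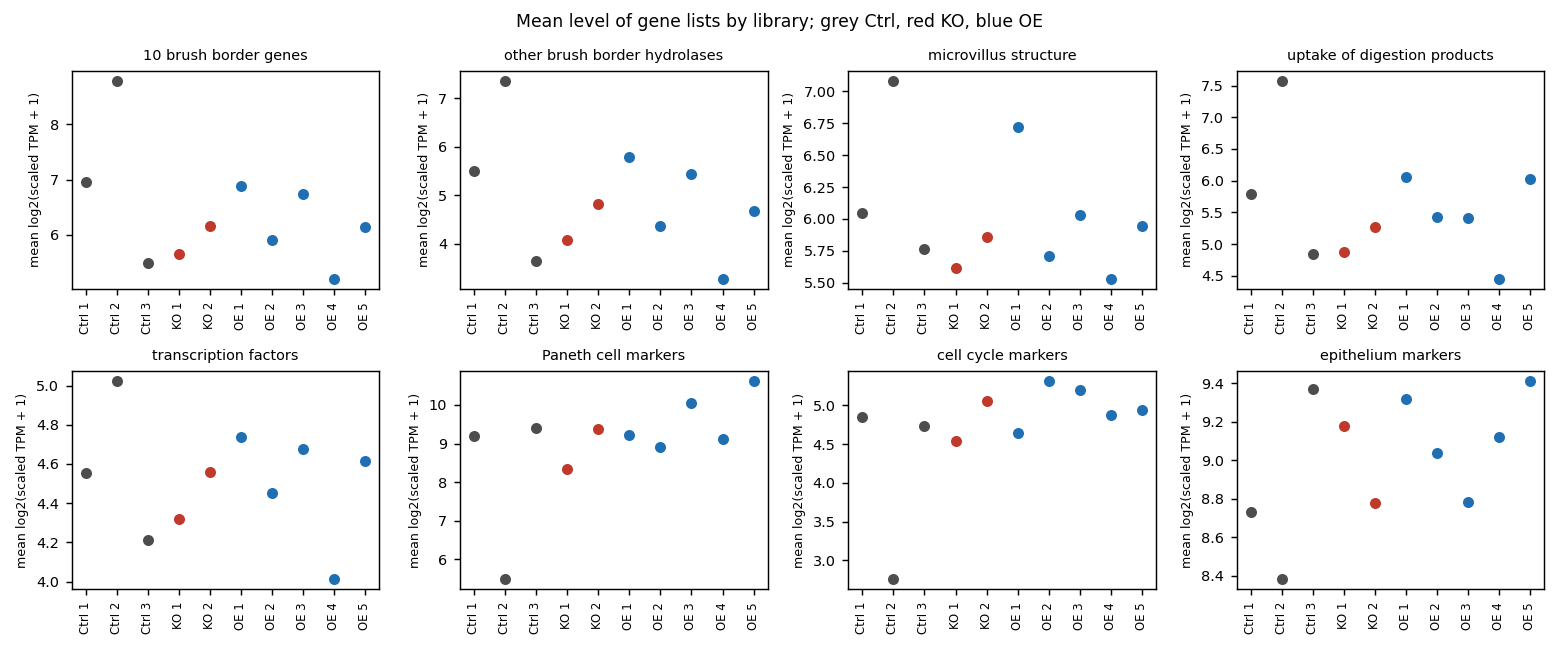
Mean log2(scaled TPM + 1) per library is plotted in 8 panels, each with its own vertical range, for the members, the 4 related lists and the Paneth cell, cell cycle and epithelium markers, with Ctrl in grey, KO in red and OE in blue. The members run from 5.20 in OE 4 to 8.79 in Ctrl 2 and the transcription factors from 4.01 to 5.02 in the same libraries, whereas Paneth cell and cell cycle markers are lowest in Ctrl 2.

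In summed scaled TPM, enterocyte markers, like the members, were highest in Ctrl 2 and lowest in OE 4, while Paneth cell, cell cycle and epithelial markers were lowest in Ctrl 2. As deposited, OE 1 was highest instead, at 5238 TPM for the enterocyte markers against 3474 in Ctrl 2, and at 2620 for the members against 1838. The 7 enterocyte markers, none of them a member, summed to 11796 scaled TPM in Ctrl 2, 6302 in OE 1 and 495 in OE 4, where the members summed to 6241, 3152 and 963. All 7 enterocyte markers were tested, and in scaled TPM 7 were lower in KO (median -1.34) and 6 in OE (median -0.91) than in Ctrl, with 0 called. Without Ctrl 2 these were 4 of 7 in KO (median -0.15) and 1 of 7 in OE (median 0.48). As deposited, 6 of 7 were lower in KO (median -0.81) and 4 of 7 in OE (median -0.40). The 6 Paneth cell markers summed to 422 scaled TPM in Ctrl 2 and 2893 to 15110 in the other libraries, and the 6 cell cycle markers to 50.5 against 148 to 286. The 6 epithelial markers ran from 2903 in Ctrl 2 to 5825 in OE 1. Of these, only Krt8 (615 scaled TPM) and Krt19 (333) were lowest in Ctrl 2, where Epcam was at 500 and Cldn7 at 1250. The 6 fibroblast markers summed to 10.4 to 107, with 6 of 6 higher in KO and 5 of 6 in OE than in Ctrl, and the 5 B cell markers to 4.82 to 183, with 4 of 5 higher in KO and 5 of 5 in OE, 0 called. The part of cell mixture in the members' differences was not tested.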

How the data were processed

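Total RNA of ileal crypts was sequenced single-end in 3 Ctrl, 2 KO and 5 OE libraries. TPM values were deposited by the authors for 28987 Ensembl IDs per library, per the file headers of 9 libraries. The header of Ctrl 1 names no unit, and its values were read as TPM. TopHat, Cufflinks and mm10 stand in the submitters' processing notes without versions, and the tool that gave the TPM is not given in the sources used here. Symbols came from GENCODE M21 for 27458 IDs. Deposited TPM were divided by median-ratio factors over 11146 genes above 0 everywhere. The filter (1 TPM or more in 2 or more libraries) left 13056 genes. Limma 3.58.1 (R 4.3.3) was run with an intensity trend on log2(scaled TPM + 1), a pseudocount of 1, over all 10 libraries with 3 group means. P-values were adjusted with Benjamini-Hochberg over all genes tested at a threshold of 0.05. The steps were tested on simulated data. Alternatives were values as deposited, other scalings, pseudocounts and filters, other limma fits, a replicate block and leaving out each library. Ratios to Vil1 were compared with exact permutation tests for 8 members. The plan foresaw 9, and Lct was left out because it is listed at 0 in 2 libraries. Named genes are all members, the 4 list genes of highest mean and the 5 genes most like the members' mean; 1 of the list genes is not reported here. RefSeq promoters (GRCm38.p6) matched all 10 members, Ace with 2. Members, lists and alternatives were chosen with earlier results of these data known. No pair of libraries held identical values.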

Additional observations from a re-analysis of the deposited data

Results flagged for a closer look

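In the OE group of 5 libraries, each library's gap to the nearest other one was taken. A library was marked where this gap was more than 0.71 of the group's range. This is Dixon's 95% critical value, which chance passes in about 1 of 20 groups of normally distributed values. The rule was applied to TPM without logs, for every member on both scales, so chance alone may give some of the marks. The share of all genes tested that the rule marks is not given here. Ctrl and KO have too few libraries for this rule. Lct in OE 3 was far above the other OE libraries, at 26.5 scaled and 31.0 deposited TPM. Vil1 in OE 1 was far above the others, at 348 scaled and 289 deposited TPM, and OE 1 is also the OE library whose Stat5a and Stat5b lay within the Ctrl range. Dpp4 in OE 4 was far below the others in deposited TPM, at 55.7.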

How the results depend on the processing

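No alternative called a member in any comparison, and 0 ratios to Vil1 passed after adjustment under any alternative run. Over all genes, KO against Ctrl called 5 without the filter and 1 in a fit of only the groups compared. OE against Ctrl called 1 in a fit of only the groups compared, 3 with the replicate block and 1 without the 3 libraries low in Y-linked genes, a setting chosen after seeing the data. OE against KO called 7 without the filter and 1 without those 3 libraries. Leaving out 1 library at a time gave 0 to 2, 0 to 1 and 0 to 2 called genes in the 3 comparisons, and a members' median of -1.39 to 0.033 in OE against Ctrl, the latter without Ctrl 2.

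With values as deposited, the log2 difference of KO against Ctrl turned to 0.10 for Sis, 0.28 for Mgam, 0.085 for Dpp4 and 0.38 for Mep1a. That of OE against Ctrl turned to 0.077 for Anpep, 0.17 for Dpp4, 0.23 for Vil1 and 0.23 for Mep1a. With the replicate block, OE against KO turned to 0.042 for Sis, 0.070 for Mgam and 0.0093 for Mep1a. Deviations of same-numbered libraries from their group means had correlations of -0.18 to 0.063. The deviations of KO 1 and KO 2 mirror each other by construction, so this check cannot decide whether the numbers pair the samples. The block changed no member's call.

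Leaving out 1 library at a time, KO against Ctrl ran from -1.08 to 0.39 for Sis, -0.85 to 0.34 for Mgam and -0.61 to 0.32 for Mep1a. OE against Ctrl ran from -0.85 to 0.082 for Anpep, -1.86 to 0.19 for Alpi and -0.86 to 0.071 for Dpp4. It ran from -2.30 to 0.12 for Treh and -0.54 to 0.11 for Vil1. OE against KO ran from -0.080 to 0.85 for Alpi, -0.23 to 0.43 for Dpp4, -0.25 to 1.05 for Treh, -0.56 to 0.70 for Ace and -0.59 to 0.33 for Mep1a.

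For the log2 ratio to Vil1, leaving out 1 library gave in KO against Ctrl -0.0060 to 0.93 for Sis, -0.19 to 0.23 for Anpep, -1.22 to 0.34 for Alpi, -1.69 to 0.25 for Treh and -1.41 to 0.45 for Ace. In OE against Ctrl it gave -0.42 to 0.046 for Anpep, -1.49 to 0.074 for Alpi, -0.44 to 0.29 for Dpp4, -1.94 to 0.0059 for Treh and -0.42 to 0.38 for Mep1a. In OE against KO it gave -0.82 to 0.29 for Alpi, -1.001 to 0.51 for Treh and -1.29 to 0.12 for Ace. Without the 3 libraries low in Y-linked genes, this ratio turned to -0.0060 for Sis and -0.19 for Anpep in KO against Ctrl, to -0.012 for Mep1a in OE against Ctrl, and to 0.015 for Anpep and 0.046 for Treh in OE against KO. Against Epcam in place of Vil1, it turned to -0.25 for Sis, -0.68 for Anpep, -0.073 for Mgam and -0.27 for Dpp4 in KO against Ctrl, to -0.39 for Mep1a in OE against Ctrl, and to 0.12 for Anpep, 0.090 for Alpi and 0.11 for Treh in OE against KO. The cause was not tested. Depth is unknown, and 2 KO libraries limit what can be called.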
